A study of Rattus norvegicus with 9 samples.

Results

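The RT1 genes are the major histocompatibility complex (MHC) genes of the rat, and they were described here in the dorsal root ganglion (DRG). Members were all rows of the deposited gene table whose symbol begins with RT1-, which gave 38 of 20413 genes. Of these, 28 were class I and 10 were class II. The symbols matched RefSeq by gene number for 38 of 38 members. RefSeq lists 67 RT1 genes in the rat, 19 of them pseudogenes, so 29 RT1 genes were not analysed here.

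The libraries came from male Sprague Dawley rats, an outbred stock, with 3 rats and 3 libraries in each of 3 groups. The CPIP group received chronic post-ischemia pain, a model of complex regional pain syndrome type I in which an O-ring stops the blood flow of a hind paw and is then removed. The CPIP+EA group received the same injury and then electroacupuncture (EA) on both hind limbs, given once a day for 10 days. The Sham group, labelled control, wore an O-ring that had been cut and did not stop the flow. Right L4-6 DRGs, on the injured side, were taken on day 10 after perfusion with saline, and poly(A) RNA was sequenced. Values are FPKM, a read count scaled by transcript length and by the mapped total of the library, so levels of different genes can be compared. The libraries listed 18279 to 18456 genes above 0 and their FPKM summed to 445647 to 482940. Summed neuron markers of 5154 to 6762 FPKM fit the labelled tissue in 9 of 9 libraries. Satellite glia markers summed to 3620 to 4205 FPKM, but Apoe alone gave 3420 to 4006 FPKM of that, and Fabp7 read 25.1 to 55.0 FPKM. Schwann cell markers varied more, from 7156 to 11229 FPKM in Sham, 6812 to 12013 FPKM in CPIP and 4834 to 9440 FPKM in CPIP+EA, highest in CPIP replicate 1, with a median log2 fold change of -0.45 over 6 markers for CPIP+EA against CPIP. Their part in the RT1 values was not tested.

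MHC class I molecules pair a polymorphic heavy chain with beta-2-microglobulin and show peptides from inside the cell to CD8 T cells and natural killer cells. Class II molecules are alpha and beta chain pairs that show peptides from engulfed material to CD4 T cells. Class II is made mostly by macrophages, dendritic cells and B cells, whereas class I is made by most nucleated cells and is low in resting neurons. In the rat, RT1-A genes encode the classical class I chains, the C/E, M, N, O, S and T genes encode mostly non-classical class I chains, RT1-B and RT1-D genes encode the peptide-presenting class II chains, and RT1-DM and RT1-DO genes encode the chains that load and edit class II peptides.

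The start regions of the main members are shown because they carry the letters by which class I and class II genes are commonly switched on. RefSeq start windows on the GRCr8 build, 250 bases before to 50 bases after the start, matched 33 of 38 members, 24 of class I and 9 of class II. Both strands were searched for 4 motifs, and matches to different motifs did not overlap within the RT1 windows. The Y box, CTGATTGG, is bound by NF-Y. The X box was searched as AGCAAC, any base, G, any base and TG, and is bound by the RFX complex, with which the class II transactivator CIITA works. Enhancer A, GGGATTCCC, is an NF-κB site, and GAAA, any pair of bases and GAAA is the core of the interferon-stimulated response element. Bases before the start are printed for the 4 main class II genes, the classical class I gene RT1-A2 and the non-classical gene RT1-S3, with each motif match in capitals.
RT1-Da (chr20:4515265-4515414, + strand): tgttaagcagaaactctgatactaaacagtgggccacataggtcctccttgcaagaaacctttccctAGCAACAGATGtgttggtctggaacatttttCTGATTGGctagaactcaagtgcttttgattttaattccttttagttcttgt
RT1-Db1 (chr20:4560163-4560312, - strand): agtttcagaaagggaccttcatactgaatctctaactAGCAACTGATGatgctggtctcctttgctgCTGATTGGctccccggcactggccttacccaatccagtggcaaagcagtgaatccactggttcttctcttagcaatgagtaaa
RT1-Ba (chr20:4576907-4577056, + strand): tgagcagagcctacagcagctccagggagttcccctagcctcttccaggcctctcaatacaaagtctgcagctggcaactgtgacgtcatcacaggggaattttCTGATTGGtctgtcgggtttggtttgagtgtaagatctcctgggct
RT1-Bb (chr20:4604119-4604268, - strand): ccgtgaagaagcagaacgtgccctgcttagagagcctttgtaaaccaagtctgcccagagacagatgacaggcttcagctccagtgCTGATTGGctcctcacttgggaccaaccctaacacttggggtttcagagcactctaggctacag
RT1-A2 (chr20:4872691-4872870, + strand): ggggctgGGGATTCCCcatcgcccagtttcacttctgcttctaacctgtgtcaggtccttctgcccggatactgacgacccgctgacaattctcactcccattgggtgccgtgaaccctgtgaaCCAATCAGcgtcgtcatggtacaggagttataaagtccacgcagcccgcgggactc
RT1-S3 (chr20:2675348-2675527, + strand): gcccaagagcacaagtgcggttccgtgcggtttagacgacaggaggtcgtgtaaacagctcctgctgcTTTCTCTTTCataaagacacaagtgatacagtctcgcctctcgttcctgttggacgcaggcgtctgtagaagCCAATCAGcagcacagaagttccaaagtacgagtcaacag

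The Y box was present in 7 of 9 class II windows and 8 of 24 class I windows, against 3.55% of all 27457 windows of that length. It lay on the gene's own strand in the class II windows and on the opposite strand in the class I windows, as the capitals in RT1-Da and RT1-A2 show. The X box was present in 4 of 9 class II windows, those of RT1-Da, RT1-Db1, RT1-Db2 and RT1-DOb, in 0 of 24 class I windows and in 0.28% of all windows. Enhancer A was present in 5 of 24 class I windows, those of RT1-A1, RT1-A2, RT1-CE4, RT1-CE10 and RT1-CE13, in 0 class II windows and in 0.35% of all windows. The interferon element core was present in 3 of 24 class I windows, those of RT1-S2, RT1-S3 and RT1-N3, in 0 class II windows and in 3.77% of all windows. These are matches of letters only, and binding was not measured.

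Expression of the family was broad in the ganglion. Averaged over the 9 libraries, 28 members reached 1 FPKM, 20 of class I and 8 of class II, and 17 reached 10 FPKM. RT1-A2 had the highest mean at 85.6 FPKM, followed by RT1-Da at 55.8 FPKM, RT1-CE10 at 46.9 FPKM and RT1-A1 at 42.8 FPKM. The spread within groups was wide enough that these neighbours in the order overlapped across libraries. The other 10 members, 8 of class I and 2 of class II, reached at most 1.58 FPKM in any library. Some RT1 genes are close copies of others and the reads were 50 bases long, so reads could have been split between copies in the authors' counting. An outbred rat can also carry alleles that the reference lacks. Values of single members are uncertain for these reasons, and summed values are given beside them.

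Some libraries stood apart from the others of their group. CPIP replicate 1 had the lowest value of all 9 libraries for 11 of the 20 class I members with a mean of at least 1 FPKM. CPIP+EA replicate 3 had the highest value for 11 of these 20 and for 14 of all 28 such members. Summed class I FPKM was 381, 385 and 336 in the Sham libraries, 319.7, 483 and 567 in the CPIP libraries, and 405, 415 and 864 in the CPIP+EA libraries. CPIP replicate 1 was thus below the Sham libraries and CPIP+EA replicate 3 above every other library. Summed class II FPKM was 128, 107 and 100.4 in Sham, 110.5, 225 and 229 in the CPIP libraries, and 199.6, 169.7 and 187 in the CPIP+EA libraries. The CPIP+EA sums for class II lay above the Sham sums, while CPIP replicate 1 lay among them. CPIP+EA replicate 3 also had the highest summed markers of neutrophil precursors, at 640.4 FPKM against 34.8 to 269.6 in the other libraries, of erythroid cells, at 6267 against 712 to 4197, and of macrophages, at 141 against 75.7 to 102. Of the macrophage sum in that library, Aif1 gave 30.7 and Tyrobp 44.15 FPKM. Adgre1, Cd163, Mrc1 and Cx3cr1 were not highest there, whereas the other macrophage markers were. The part of neutrophil precursors, erythroid cells and macrophages in the RT1 values was not tested. In bulk tissue, fewer cells of a type and less RNA per cell cannot be told apart.

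**Figure D1:**
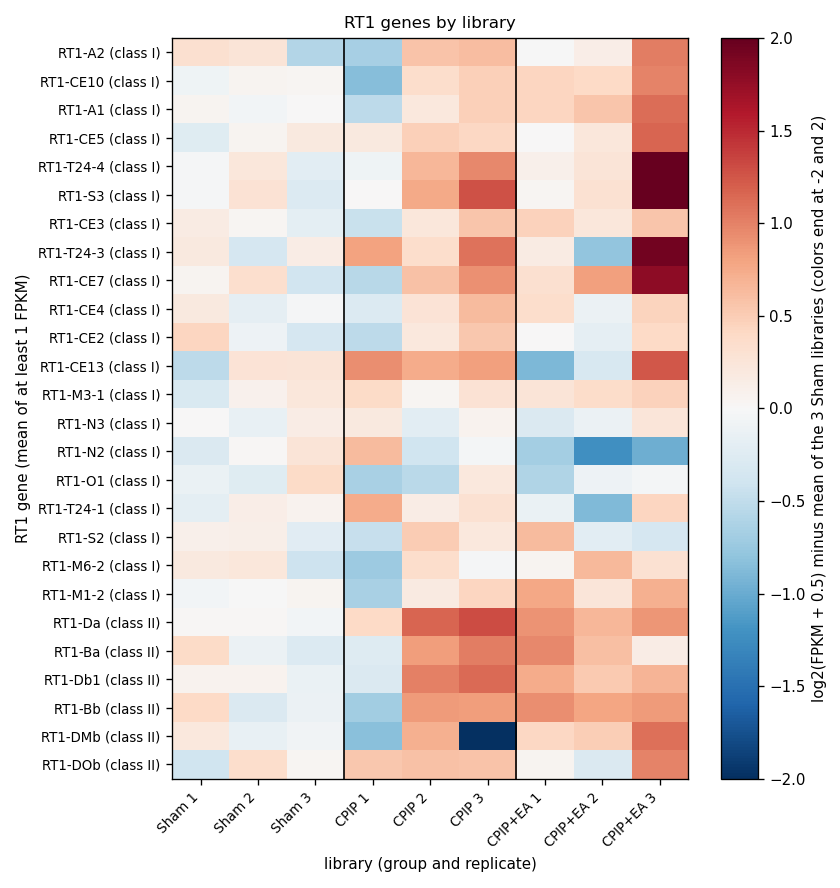
Color gives log2(FPKM + 0.5) in each library minus the mean of the 3 Sham libraries, for the 26 RT1 genes that have a mean of at least 1 FPKM and are above 0 in every library, with class I above class II and each class ordered by mean level. CPIP replicate 1 has a median of -0.35 over 20 class I genes and CPIP+EA replicate 3 a median of 0.63, and CPIP replicates 2 and 3 have medians of 0.85 and 0.93 over 6 class II genes.

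The comparison of CPIP with Sham asks what ischemic injury did in the DRG. Of the 9 class II members tested, 8 had a log2 fold change above 0, and their median was 0.57. The 24 class I members tested had a median of 0.10, with 18 of 24 above 0. Over all 17187 genes tested the median was -0.01 and 47.9% were above 0. Tests used limma on log2(FPKM + 0.5). A call needed an adjusted p below 0.01 together with a change of 1.5-fold or more, up or down. By limma, 0 of 33 RT1 members were called, against 0.355% of all genes. At an unadjusted p under 0.05, limma gave 1 class II member that was higher (RT1-Da) and 1 class I member that was lower (RT1-M1-5), against 8.66% of all genes (4.61% higher and 4.06% lower). These counts were 5 of class II and 4 of class I without CPIP replicate 1, and 3 and 5 without CPIP+EA replicate 3. The share of all genes at that p in those fits was not computed. Libraries of the groups did not overlap for 3 of 9 class II members and 5 of 24 class I members, against 15.9% of all genes. Without CPIP replicate 1, limma called 2 class II members, RT1-Da and RT1-Db1, and 41 of all 17167 genes tested in that fit. The medians without that library were 0.84 for class II and 0.36 for class I. Without CPIP replicate 3 the medians were 0.36 for class II and -0.0035 for class I, with 11 of 23 class I members above 0. Without CPIP replicate 2 or Sham replicate 3 the class I median was 0.06. With the members that were listed at 0 in some library left out, the medians were 0.53 for 7 class II members and 0.10 for 22 class I members.

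The comparison of CPIP+EA with CPIP asks what electroacupuncture changed after the injury. The median log2 fold change was 0.09 for class I and 0.03 for class II, with 15 of 24 and 5 of 9 members above 0, against 0.01 over all genes and 54% of them above 0. By limma, 0 of 33 members were called, and 0 of 17187 genes in all, a background of 0%. At an unadjusted p under 0.05, limma gave 2 class I members, RT1-A1 higher and RT1-N2 lower, and 1 class II member, RT1-DMb, which was higher, against 4.29% of all genes (2.22% higher and 2.07% lower). The class II count was 0 on a TPM scale, with no filter on low values, with only the 2 groups fitted and without any 1 Sham library. It was 2 without CPIP replicate 1 or CPIP+EA replicate 3. Libraries did not overlap for 1 of 24 class I members and 0 of 9 class II members, against 8.23% of all genes. The direction of the class medians depended on single libraries and, for class II, on the filter. With no filter on low values the medians were 0.04 over 28 class I members and -0.05 over 10 class II members, and with a minimum mean of 1 FPKM they were 0.11 and -0.05. On a TPM scale and after quantile normalization the class II median was 0.0095 and 0.006. Without CPIP+EA replicate 3 the medians were -0.06 for class I and 0.01 for class II, and without CPIP replicate 1 they were -0.05 and -0.36. Without CPIP replicate 3 they were 0.23, with 17 of 23 above 0, and 0.26, with 6 of 9 above 0. Without CPIP replicate 2 they were 0.15 and 0.06, without CPIP+EA replicate 1 they were 0.18 and -0.16, and without CPIP+EA replicate 2 they were 0.16 and -0.04. With CPIP replicate 1 and CPIP+EA replicate 3 both left out, a choice made after seeing the data, the medians were -0.18 for class I and -0.44 for class II, and 0 members were called.

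The comparison of CPIP+EA with Sham shows injury and electroacupuncture together. It shares its CPIP+EA libraries with the comparison above and its Sham libraries with the comparison of CPIP with Sham. The median log2 fold change was 0.57 for class II, with 9 of 9 members above 0, and 0.34 for class I, with 18 of 24 above 0, against 0.0014 over all genes and 50.4% of them above 0. By limma, 0 of 33 members were called, against 0.483% of all genes. At an unadjusted p under 0.05, limma gave 2 class II members that were higher (RT1-Da and RT1-Bb), 2 class I members that were higher (RT1-A1 and RT1-M3-1) and 2 class I members that were lower (RT1-N2 and RT1-M1-5), against 12.2% of all genes (6.59% higher and 5.63% lower). These counts were 5 of class II and 8 of class I without CPIP replicate 1, and 6 and 8 with only the 2 groups fitted. The share of all genes at that p in those fits was not computed. Libraries did not overlap for 4 of 9 class II members and 7 of 24 class I members, against 16.2% of all genes. With no filter on low values, the class I median was 0.15 with 18 of 28 above 0. Without Sham replicate 3, the class I median was 0.18. Without CPIP+EA replicate 3, the class I median was 0.11 with 15 of 24 above 0, and the class II median was 0.62 with 6 of 9 above 0. With the members listed at 0 in some library left out, the medians were 0.64 for 7 class II members and 0.35 for 22 class I members.

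**Figure D2:**
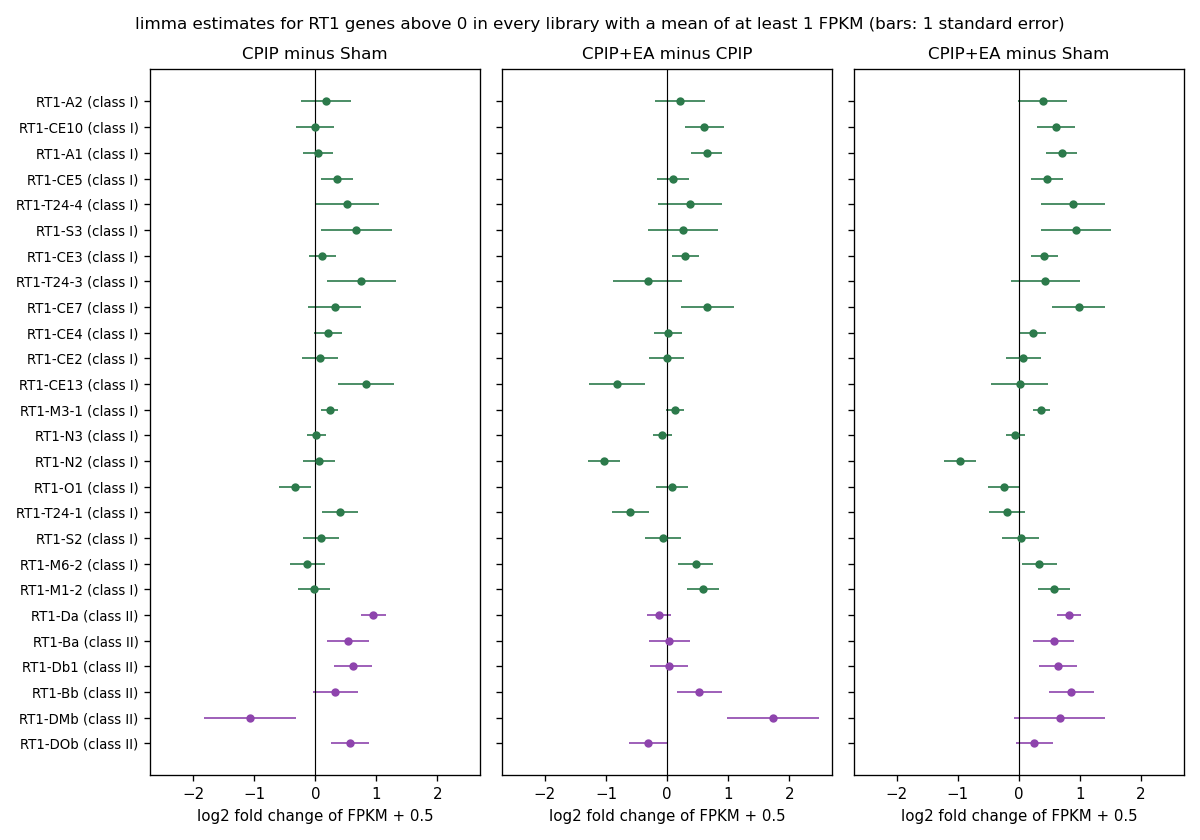
Points are limma log2 fold changes of FPKM + 0.5 and bars are 1 standard error, for the 26 RT1 genes with a mean of at least 1 FPKM and values above 0 in every library, in the 3 comparisons (class I in green, class II in purple). RT1-Da lies at 0.95 for CPIP against Sham and at 0.82 for CPIP+EA against Sham, RT1-N2 lies at -1.03 for CPIP+EA against CPIP, and RT1-DMb has the longest bars.

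RT1-Da and RT1-Db1, the alpha and beta chains of the RT1-D molecule, are paired in the cell and are described first. RT1-Da read 35.6, 35.5 and 33.5 FPKM in Sham, 46.0, 78.8 and 86.7 FPKM in CPIP, and 65.8, 55.4 and 65.1 FPKM in CPIP+EA. The Sham libraries, at 34.9 ± 1.21 FPKM (SD, n = 3), lay below all 6 libraries of the injured rats. In limma, the log2 fold change of RT1-Da was 0.95 ± 0.20 (SE, adjusted p = 0.0866) for CPIP against Sham. For CPIP+EA against Sham it was 0.82 ± 0.20 (SE, adjusted p = 0.109 in limma), and for CPIP+EA against CPIP it was -0.13 ± 0.20 (SE, adjusted p = 0.996 in limma). Without CPIP replicate 1 this last value was -0.41, and without CPIP replicates 2 and 3 it was -0.03 and 0.04, and it was -0.06 without CPIP+EA replicate 2. RT1-Da did not pass the threshold with all libraries. Without CPIP replicate 1, the log2 fold change for CPIP against Sham was 1.23 (adjusted p = 0.00106 in limma), and the call for CPIP+EA against Sham was also made (adjusted p = 0.00345 in limma), since that library no longer entered the shared estimate of the spread. The same call was made in a limma fit of only the CPIP+EA and Sham libraries, with an adjusted p of 0.00908.

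RT1-Db1 read 24.95, 25.0 and 21.6 FPKM in Sham, 19.5, 48.15 and 52.8 FPKM in CPIP, and 40.2, 34.3 and 38.2 FPKM in CPIP+EA. CPIP replicates 2 and 3 lay above every other library, whereas CPIP replicate 1 lay below all Sham libraries. The CPIP+EA libraries lay above the Sham libraries. The log2 fold change was 0.62 ± 0.31 (SE, adjusted p = 0.665 in limma) for CPIP against Sham and 0.64 ± 0.31 (SE, adjusted p = 0.451 in limma) for CPIP+EA against Sham. Without CPIP replicate 1, the first of these was 1.07 with an adjusted p of 0.0036 in limma, past the threshold, and without CPIP replicate 3 it was 0.36 and was not called. RT1-Db2, a second beta chain gene of the D region, was listed at 0, 1.24 and 0.72 FPKM in Sham, 2.22, 1.86 and 2.43 FPKM in CPIP, and 0, 0.39 and 2.85 FPKM in CPIP+EA. Its CPIP values lay above its Sham values, and its CPIP+EA values ran from the lowest to the highest of all libraries. Added to RT1-Db1, it gave 24.95, 26.3 and 22.3 FPKM in Sham, 21.7, 50.01 and 55.2 FPKM in CPIP, and 40.2, 34.7 and 41.1 FPKM in CPIP+EA, so the pair kept the pattern of RT1-Db1.

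RT1-Ba and RT1-Bb encode the alpha and beta chains of the RT1-B molecule. RT1-Ba read 37.7, 26.3 and 23.75 FPKM in Sham, 23.8, 51.7 and 59.2 FPKM in CPIP, and 56.05, 43.8 and 31.97 FPKM in CPIP+EA. RT1-Bb read 18.1, 11.1 and 12.45 FPKM in Sham, 8.22, 25.0 and 24.5 FPKM in CPIP, and 26.3, 23.9 and 25.0 FPKM in CPIP+EA. CPIP replicate 1 was below all Sham libraries for RT1-Bb and within their range for RT1-Ba. For both genes CPIP replicate 1 was the lowest of its group, CPIP replicates 2 and 3 were above Sham, and for RT1-Bb all CPIP+EA libraries were above all Sham libraries. The log2 fold change of RT1-Bb for CPIP+EA against Sham was 0.86 ± 0.37 (SE, adjusted p = 0.397 in limma), and it missed the threshold. For CPIP against Sham it was 0.33 ± 0.37 (SE, adjusted p = 0.92 in limma) with all libraries. With a library left out it ran from 0.07 without CPIP replicate 2 and 0.08 without CPIP replicate 3 to 0.84 without CPIP replicate 1, and it was 0.19 and 0.53 without Sham replicates 2 and 1. RT1-Ba had values of 0.53 ± 0.34 (SE, adjusted p = 0.785 in limma) and 0.57 ± 0.34 (SE, adjusted p = 0.551 in limma) for CPIP and CPIP+EA against Sham. The first was 0.93 without CPIP replicate 1 and 0.29 without CPIP replicate 3, and the second was 0.38 without CPIP+EA replicate 1.

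Added together, the 4 main class II chains gave 116, 98.0 and 91.25 FPKM in Sham, 97.5, 203.6 and 223 FPKM in CPIP, and 188, 157 and 160.3 FPKM in CPIP+EA. Every CPIP+EA sum was above every Sham sum and below the sums of CPIP replicates 2 and 3. The mean of these CPIP replicates was 213 FPKM and the mean with replicate 1 included was 175 ± 67.6 (SD, n = 3), beside 169 ± 17.0 (SD, n = 3) in CPIP+EA and 102 ± 13.1 (SD, n = 3) in Sham. The SD within CPIP exceeded the difference between CPIP and CPIP+EA.

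**Figure D3:**
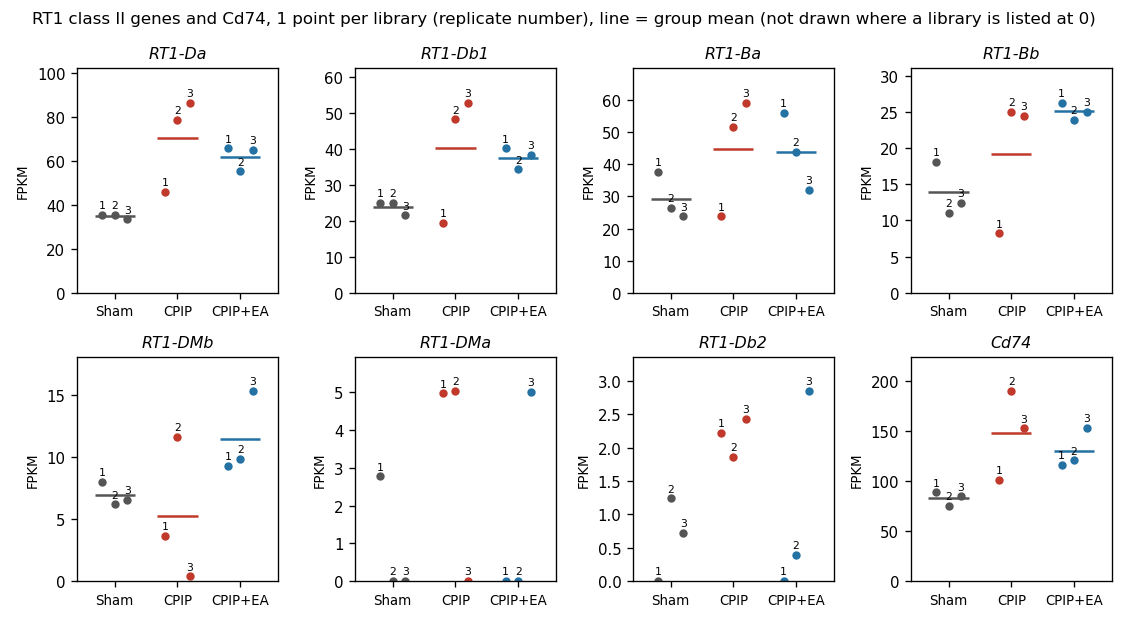
Each panel gives FPKM by group for a class II gene or Cd74, with 1 point per library numbered by replicate, and a line at the group mean (not drawn where a library was listed at 0). CPIP replicate 1 sits at 46.0 FPKM for RT1-Da, below CPIP replicates 2 and 3 at 78.8 and 86.7, and RT1-DMa is listed at 0 in 5 of 9 libraries.

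The peptide-loading and editing genes had lower means than the 4 main class II chains, and the DM genes were more scattered. RT1-DMa and RT1-DMb encode the DM chains, which exchange peptides on class II. RT1-DMa was listed at 2.77, 0 and 0 FPKM in Sham, 4.97, 5.03 and 0 FPKM in CPIP, and 0, 0 and 5.01 FPKM in CPIP+EA. RT1-DMb read 8.03, 6.20 and 6.58 FPKM in Sham, 3.64, 11.7 and 0.38 FPKM in CPIP, and 9.33, 9.86 and 15.4 FPKM in CPIP+EA. RT1-DMb was above 0 in every library, including those where RT1-DMa was listed at 0. In CPIP replicate 3, where RT1-Da, RT1-Db1 and RT1-Ba were highest, RT1-DMa was listed at 0 and RT1-DMb was near 0. For RT1-DMb the CPIP+EA libraries lay above the Sham libraries, with a log2 fold change of 0.67 ± 0.75 (SE, adjusted p = 0.789 in limma). Against CPIP the value was 1.73 ± 0.75 (SE, unadjusted p = 0.0468 and adjusted p = 0.996 in limma), and it was 0.73 without CPIP replicate 3 and 2.62 without CPIP replicate 2. RT1-DOa and RT1-DOb encode the DO chains, which hold DM in check. RT1-DOb read 0.53, 1.22 and 0.89 FPKM in Sham, 1.47, 1.52 and 1.51 FPKM in CPIP, and 0.91, 0.60 and 2.20 FPKM in CPIP+EA, so that CPIP lay above Sham without overlap. Its log2 fold change for CPIP against Sham was 0.57 ± 0.31 (SE, adjusted p = 0.709 in limma), and 0.37 without Sham replicate 1. RT1-DOa ranged from 0.43 to 1.58 FPKM, and the remaining class II member, RT1-Ha, reached at most 0.11 FPKM.

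The classical class I genes RT1-A1 and RT1-A2 were among the highest members. RT1-A1 read 35.5, 32.8 and 34.6 FPKM in Sham, 23.7, 39.6 and 47.8 FPKM in CPIP, and 46.2, 50.6 and 74.85 FPKM in CPIP+EA. The CPIP+EA libraries were above the Sham libraries, and CPIP reached from below Sham to within the CPIP+EA range. The log2 fold change of RT1-A1 was 0.70 ± 0.25 (SE, adjusted p = 0.295 in limma) for CPIP+EA against Sham, 0.65 ± 0.25 (SE, adjusted p = 0.996 in limma) for CPIP+EA against CPIP and 0.05 ± 0.25 (SE, adjusted p = 0.986 in limma) for CPIP against Sham. The value against CPIP was 0.36 without CPIP replicate 1. The value of CPIP against Sham was 0.34 without CPIP replicate 1, and -0.03 and -0.16 without CPIP replicates 2 and 3. RT1-A2 read 88.6, 84.4 and 47.0 FPKM in Sham, 44.4, 105.5 and 108 FPKM in CPIP, and 70.5, 77.85 and 144 FPKM in CPIP+EA. All 3 groups overlapped for RT1-A2, and Sham itself varied from 47.0 to 88.6. The sum of the pair was 108 ± 22.9 (SD, n = 3) FPKM in Sham, 123 ± 48.0 (SD, n = 3) in CPIP and 155 ± 55.9 (SD, n = 3) in CPIP+EA.

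Of the 7 C/E genes, RT1-CE10 was the highest, with 36.6, 40.1 and 39.6 FPKM in Sham, 21.2, 49.5 and 54.35 FPKM in CPIP, and 52.2, 51.3 and 77.2 FPKM in CPIP+EA. Like RT1-A1, it was tight in Sham, lowest in CPIP replicate 1 and above Sham in all CPIP+EA libraries. Its log2 fold change for CPIP+EA against Sham was 0.60 ± 0.31 (SE, adjusted p = 0.494 in limma). RT1-CE3 also had CPIP+EA values of 27.4 to 34.3 FPKM above its Sham values of 20.2 to 26.3 FPKM. RT1-CE5 read 27.8, 34.2 and 37.8 FPKM in Sham and 37.9, 46.1 and 44.2 FPKM in CPIP, a narrow gap between the groups, and 33.1, 38.5 and 74.5 FPKM in CPIP+EA. RT1-CE13, unlike the other C/E genes, was highest of its group in CPIP replicate 1, with 7.09, 12.6 and 12.5 FPKM in Sham, 20.2, 17.6 and 18.8 FPKM in CPIP, and 5.32, 8.26 and 25.3 FPKM in CPIP+EA. Its CPIP values lay above Sham, and CPIP+EA held the lowest of all libraries as well as the highest. The log2 fold change of RT1-CE13 was 0.83 ± 0.46 (SE, adjusted p = 0.724 in limma) for CPIP against Sham and -0.82 ± 0.46 (SE, adjusted p = 0.996 in limma) for CPIP+EA against CPIP. The second value was -1.44 without CPIP+EA replicate 3 and -0.36 without CPIP+EA replicate 1. RT1-CE2 and RT1-CE4 overlapped among all groups, at 10.46 to 22.55 FPKM and 18.1 to 34.1 FPKM. Summed C/E values were 161 ± 4.56 (SD, n = 3) FPKM in Sham, 196 ± 53.7 (SD, n = 3) in CPIP and 232 ± 76.3 (SD, n = 3) in CPIP+EA.

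RT1-T24-4, RT1-S3, RT1-CE7 and RT1-T24-3 are grouped here for their high values in CPIP+EA replicate 3, a choice made with these data known. Other class I members, among them RT1-CE13 and RT1-CE5, were also highest in that library. RT1-T24-4 read 23.5, 28.1 and 20.4 FPKM in Sham, 22.4, 38.05 and 46.7 FPKM in CPIP, and 25.6, 28.6 and 120.2 FPKM in CPIP+EA. RT1-S3 read 16.7, 20.8 and 14.0 FPKM in Sham, 17.0, 28.85 and 41.5 FPKM in CPIP, and 17.4, 21.1 and 94.8 FPKM in CPIP+EA. In both genes CPIP+EA replicates 1 and 2 were close to the Sham libraries, CPIP replicates 2 and 3 were higher, and CPIP+EA replicate 3 was the highest library. RT1-CE7 read 17.2, 21.1 and 12.6 FPKM in Sham, 11.1, 25.3 and 31.9 FPKM in CPIP, and 20.9, 29.9 and 58.5 FPKM in CPIP+EA. RT1-T24-3 read 19.4, 13.2 and 18.6 FPKM in Sham, 29.9, 21.7 and 36.3 FPKM in CPIP, and 18.9, 9.49 and 65.65 FPKM in CPIP+EA. Its CPIP libraries did not overlap with Sham. The sum of the 4 genes was 76.8, 83.2 and 65.7 FPKM in Sham, 80.4, 114 and 156 FPKM in CPIP, and 82.8, 89.1 and 339 FPKM in CPIP+EA. For 3 of the 4, the sign of the comparison of CPIP+EA with CPIP turned with single libraries. For RT1-S3 the log2 fold change was 0.26 ± 0.58 (SE, adjusted p = 0.996 in limma) with all libraries, -0.50 without CPIP+EA replicate 3, -0.08 without CPIP replicate 1 and 0.56 to 0.71 without CPIP replicate 3 or CPIP+EA replicate 1 or 2. For RT1-T24-4 it was 0.38 ± 0.53 (SE, adjusted p = 0.996 in limma) with all libraries, -0.33 without CPIP+EA replicate 3, 0.08 without CPIP replicate 1 and 0.60 to 0.77 without CPIP replicate 3 or CPIP+EA replicate 1 or 2. For RT1-T24-3 it was -0.32 ± 0.56 (SE, adjusted p = 0.996 in limma) with all libraries, -0.18, 0.29 and -1.07 on leaving out CPIP+EA replicates 1, 2 and 3 in turn, and -0.52 and -0.15 without CPIP replicates 2 and 3. RT1-CE7 was at 0.66 ± 0.44 (SE, adjusted p = 0.996 in limma), 0.26 without CPIP+EA replicate 3 and 0.22 without CPIP replicate 1.

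**Figure D4:**
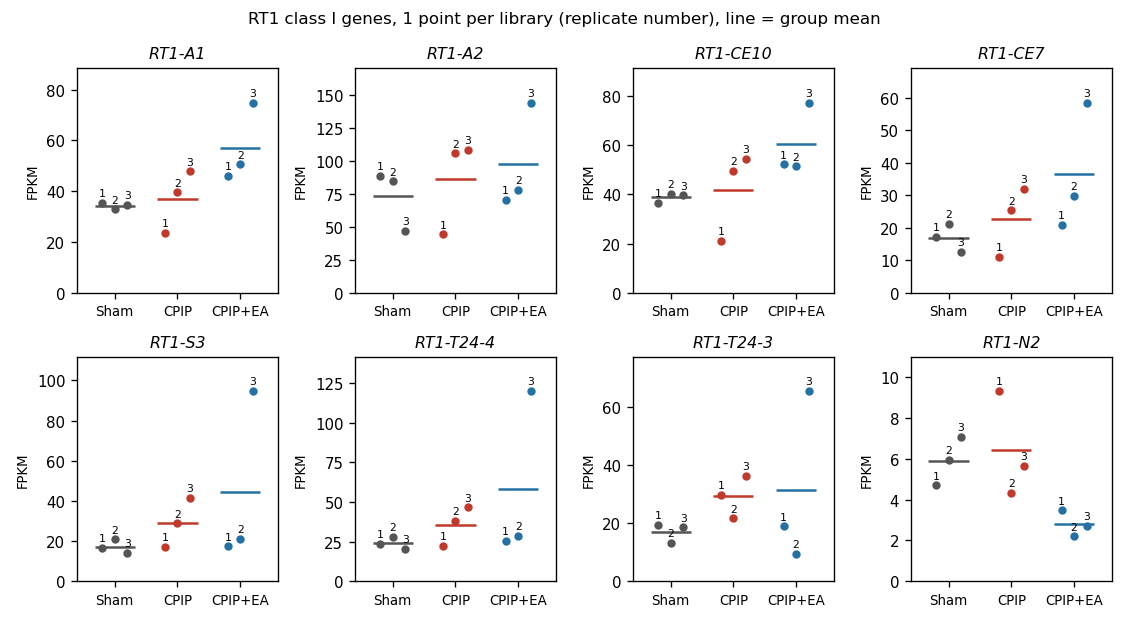
Each panel gives FPKM by group for a class I gene, with 1 point per library numbered by replicate and a line at the group mean. CPIP+EA replicate 3 reads 94.8 FPKM for RT1-S3 and 120.2 FPKM for RT1-T24-4, and the 3 CPIP+EA libraries of RT1-N2, at 2.20 to 3.47 FPKM, sit below all other libraries.

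RT1-N2 went the other way from most class I members. It read 4.70, 5.97 and 7.10 FPKM in Sham, 9.34, 4.32 and 5.65 FPKM in CPIP, and 3.47, 2.20 and 2.71 FPKM in CPIP+EA. All CPIP+EA libraries were lower than all Sham and all CPIP libraries. The log2 fold change was -1.03 ± 0.26 (SE, unadjusted p = 0.0034 and adjusted p = 0.996 in limma) against CPIP and -0.96 ± 0.26 (SE, adjusted p = 0.152 in limma) against Sham, so neither passed the threshold. The value against CPIP was -0.74 without CPIP replicate 1, in which RT1-N2 was at its highest. RT1-N3, the other N gene, had group means of 8.64 ± 0.94 (SD, n = 3), 8.78 ± 1.34 (SD, n = 3) and 8.34 ± 1.70 (SD, n = 3) FPKM in Sham, CPIP and CPIP+EA, which differed by less than these SDs. RT1-M3-1, a relative of the mouse gene that presents formylated peptides, read 9.27, 12.3 and 13.7 FPKM in Sham, 15.2, 12.0 and 14.3 FPKM in CPIP, and 14.1, 15.2 and 16.25 FPKM in CPIP+EA. Its CPIP+EA libraries were above its Sham libraries, with a log2 fold change of 0.37 ± 0.14 (SE, adjusted p = 0.328 in limma) that was 0.21 without Sham replicate 1.

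The remaining class I members were low. RT1-T24-1 read 2.72 to 3.51 FPKM in Sham and 3.59 to 5.67 FPKM in CPIP, without overlap, and 1.5 to 4.44 FPKM in CPIP+EA. RT1-M1-2 read 0.81 to 0.92 FPKM in Sham, 0.37 to 1.33 FPKM in CPIP and 1.11 to 1.82 FPKM in CPIP+EA, the last above Sham in all libraries. RT1-O1 at 2.49 to 5.58 FPKM, RT1-S2 at 2.21 to 5.24 FPKM and RT1-M6-2 at 0.71 to 2.63 FPKM overlapped among all groups. The 8 class I members under 1 FPKM were RT1-M1-4, RT1-M1-5, RT1-M10-1, RT1-M2, RT1-M4, RT1-M5, RT1-M6-1 and RT1-T18, and the highest value among them was 0.72 FPKM, for RT1-M1-4 in CPIP+EA replicate 2. RT1-M1-5 read 0.52, 0.52 and 0.21 FPKM in Sham and at most 0.17 FPKM in CPIP+EA. At levels this low the differences could not be resolved.

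Genes that work with the RT1 chains were read from 4 lists. Of the 15 class I pathway genes (peptide supply and loading), 11 class II pathway genes, 8 genes of the interferon gamma axis and 6 receptors for MHC that were tested, 0 were called by limma in any comparison, against 0.355%, 0% and 0.483% of all genes for CPIP against Sham, CPIP+EA against CPIP and CPIP+EA against Sham. For CPIP against Sham, limma gave unadjusted p-values under 0.05 for 1, 3, 1 and 1 of them, all higher, against 8.66% of all genes. For CPIP+EA against CPIP the numbers were 0, 0, 1 and 1, against 4.29%, and for CPIP+EA against Sham 2, 3, 1 and 2, against 12.2%. Cd74, the invariant chain that guides class II to the endosome, read 88.7, 75.2 and 84.7 FPKM in Sham, 101.1, 190.2 and 152.7 FPKM in CPIP, and 117, 121 and 153.1 FPKM in CPIP+EA. As with RT1-Da, every injured library was above every Sham library and CPIP replicate 1 was the lowest of the CPIP group. Its log2 fold change was 0.79 ± 0.21 (SE, adjusted p = 0.194 in limma) for CPIP against Sham and 0.64 ± 0.21 (SE, adjusted p = 0.236 in limma) for CPIP+EA against Sham. Ciita, the class II transactivator, was low, at 0.43 to 0.76 FPKM in Sham, 0.79 to 0.89 FPKM in CPIP and 0.67 to 0.78 FPKM in CPIP+EA. Its CPIP libraries lay above Sham and above CPIP+EA without overlap, with a log2 fold change of 0.32 ± 0.13 (SE, adjusted p = 0.528 in limma) against Sham. Ctss, cathepsin S, which trims the invariant chain, read 18.7 to 23.7 FPKM in Sham, 26.1 to 34.2 FPKM in CPIP and 26.95 to 48.7 FPKM in CPIP+EA. Cd80, a costimulatory ligand, read 0.49 to 0.63 FPKM in Sham and 0.86 to 1.04 FPKM in CPIP+EA. Rfxap, a subunit of the RFX complex, was listed at 3.63, 0 and 7.38 FPKM in Sham, 3.09, 0 and 0 FPKM in CPIP, and 4.32, 1.96 and 7.12 FPKM in CPIP+EA. Zeros occurred in Sham and CPIP.

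On the class I side, B2m, the light chain, read 325, 292 and 348 FPKM in Sham, 318, 338 and 374 FPKM in CPIP, and 301, 279.96 and 482.5 FPKM in CPIP+EA. The groups overlapped, and CPIP+EA replicate 3 was again the highest library. Tap1, Tap2, Psmb8 and Psmb9, which encode the peptide transporter and immunoproteasome subunits, also peaked in that library, at 12.0, 10.2, 19.1 and 17.7 FPKM, against at most 9.85, 7.26, 16.6 and 10.35 FPKM elsewhere. Tapbp, tapasin, stayed between 18.0 and 26.65 FPKM and Nlrc5, the class I transactivator, between 0.60 and 1.26 FPKM. Psmb10, another immunoproteasome subunit, read 22.1 to 25.1 FPKM in Sham and 27.9 to 32.7 FPKM in CPIP+EA. Tapbpl, the tapasin-related peptide editor, had close replicates within each group, with 10.2, 9.46 and 10.3 FPKM in Sham, 13.8, 13.0 and 13.35 FPKM in CPIP, and 13.4, 12.6 and 13.4 FPKM in CPIP+EA. It was higher in all injured libraries, with a log2 fold change of 0.40 ± 0.06 (SE, adjusted p = 0.0261 in limma) for CPIP against Sham and 0.38 ± 0.06 (SE, adjusted p = 0.0239 in limma) for CPIP+EA against Sham, under the fold of 1.5 and over the adjusted p of 0.01 that a call needed. Klrk1, the NKG2D receptor for class I-like ligands, read 0.9, 1 and 1.3 FPKM in Sham, 2.5, 1.56 and 3.3 FPKM in CPIP, and 3.72, 3.4 and 3.83 FPKM in CPIP+EA, with no overlap among the 3 groups. Its log2 fold change was 1.41 ± 0.21 (SE, adjusted p = 0.0121 in limma) for CPIP+EA against Sham, just short of a call, and it was called in 3 of 19 alternatives (only the 2 groups fitted, and without CPIP replicate 2 or 3). Jak2, a kinase of the interferon gamma receptor, read 9.52 to 11.1 FPKM in Sham, 11.6 to 13.0 FPKM in CPIP and 13.3 to 13.9 FPKM in CPIP+EA, with a log2 fold change of 0.38 ± 0.07 (SE, adjusted p = 0.0441 in limma) against Sham. Among 14 tested genes of the neighbouring class III region, 0 were called in any comparison by limma, and 1, 0 and 2 had an unadjusted p under 0.05 in the order of comparisons above, against 8.66%, 4.29% and 12.2% of all genes.

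Markers of the cells that make class II were read beside these results. Summed over 12 macrophage markers, FPKM was 75.7 to 92.6 in Sham, 86.1 to 102 in CPIP and 83.5 to 141 in CPIP+EA, and limma called 0 of 12 in any comparison. At an unadjusted p under 0.05, limma gave 2, 0 and 3 of the 12 for CPIP against Sham, CPIP+EA against CPIP and CPIP+EA against Sham, against 8.66%, 4.29% and 12.2% of all genes. Their log2 fold changes had medians of 0.19, 0.07 and 0.34, with 10, 8 and 9 of 12 above 0. Against Sham they ran from -0.49 for Cd163 to 0.97 for Fcgr3a in CPIP and from -0.33 for Mrc1 to 1.34 for Fcgr3a in CPIP+EA, genes named here after their values were seen. Fcgr3a, an Fc receptor gene, read 0.87 to 1.87 FPKM in Sham, 2.49 to 3.54 FPKM in CPIP and 2.72 to 6.76 FPKM in CPIP+EA, and Cx3cr1, a chemokine receptor gene, read 1.96 to 2.74, 3.26 to 4.27 and 3.26 to 4.17 FPKM. Both were above Sham in all injured libraries and missed the limma threshold. Mrc1 had log2 fold changes of -0.25 and -0.33 against Sham in CPIP and CPIP+EA, and Cd163 of -0.49 and -0.15. Libraries did not overlap for 4, 0 and 3 of the 12 in the comparison order above, against 15.9%, 8.23% and 16.2% of all genes. The microglia and macrophage marker Aif1 read 16.9 to 17.4 FPKM in Sham, 18.8 to 19.65 FPKM in CPIP and 17.9 to 30.7 FPKM in CPIP+EA. Cd68 read 5.13, 10.47 and 8.65 FPKM in CPIP against 5.21 to 5.93 FPKM in Sham. CPIP replicate 1 was below Sham for Cd68 and above all Sham libraries for Aif1, Fcgr3a and Cx3cr1, and its macrophage sum of 86.1 FPKM lay within the Sham range. The pan-leukocyte gene Ptprc read 2.46 to 5.65 FPKM over all libraries. Summed dendritic cell markers were 25.0 to 29.8 FPKM in Sham, 26.4 to 31.1 in CPIP and 27.9 to 30.8 in CPIP+EA, with Flt3 at 5.40 to 6.96 FPKM. Summed over 5 B cell markers, FPKM was 6.84 to 16.9 in Sham, 7.93 to 14.8 in CPIP and 7.51 to 23.7 in CPIP+EA, highest in CPIP+EA replicate 3. T cell markers summed to 1.91 to 3.01 FPKM over all libraries, and Cd3e was at most 0.30 FPKM and listed at 0 in CPIP+EA replicate 3. NK cell markers summed to 1.56 to 6.59 FPKM, with Ncr1 at 0.14 to 0.85 FPKM. Endothelial markers summed to 54.2 to 82.3 FPKM, with Pecam1 at 3.72 to 8.50 FPKM, and S100a9, a neutrophil gene, ran from 14.1 to 272 FPKM, highest in CPIP+EA replicate 3. The part of any of these cells in the RT1 values was not tested.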

How the data were processed

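The authors sequenced DRG mRNA as single-end 50-base reads, cleaned the reads with SOAPnuke, and deposited FPKM per gene and library with 2 decimals. The aligner, genome build and annotation are not given in the sources used here. The authors also deposited log2 ratios, P-values and Q-values of their own comparisons, which were not used. The table holds no read counts, so precision was taken from the spread among libraries within the groups. In limma this spread is pooled over the 3 groups and moderated across genes, so a gene has the same SE in all 3 comparisons.

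A linear model of log2(FPKM + 0.5) was fitted in limma 3.58.1 (R 4.3.3) to all 9 libraries at once, with a mean-variance trend, for the 17187 genes with a mean of at least 0.1 FPKM. Two-sided p-values were adjusted over these genes by Benjamini-Hochberg. Fold changes on this scale understate changes of low genes. A gene is written as listed at 0 where the table gives 0. Tables and figures used Python 3.11.15, numpy 2.4.6, pandas 2.3.3 and matplotlib 3.10.9.

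The members, gene lists and tests were chosen with earlier results of these data known. Members named with values are those with a mean of at least 1 FPKM, called members and those the study names, and members under 1 FPKM are given by their range or as examples. Of other genes, fixed pathway and marker genes and pathway genes with an unadjusted p under 0.01 are named. March1, Ly49s3, Hspa1b and Trac were not found in the table under those symbols, and 1 B cell marker is not reported here. Alternatives were other pseudocounts, filters, scales, thresholds, a fit without the trend, a replicate block, 2 groups alone and each library left out. The scripts were tested on simulated data.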

Additional observations from a re-analysis of the deposited data

How the results depend on the processing

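In limma fits, RT1 class I calls were 0 in all alternatives and comparisons. RT1 class II calls were 0 in the fits reported. For CPIP against Sham they were 0 to 2 with a library left out (2 without CPIP replicate 1) and 2 with CPIP replicate 1 and CPIP+EA replicate 3 both left out, a choice made after seeing the data. For CPIP+EA against Sham they were 1 with only the 2 groups fitted and 0 to 1 with a library left out. Antigen presentation genes called were 1 for CPIP against Sham and 3 for CPIP+EA against Sham at an adjusted p under 0.05 with no limit on the fold, and for CPIP+EA against Sham 1 with only the 2 groups and 0 to 1 with a library left out. Calls over all genes for CPIP against Sham, 61 as reported, were 122 at an adjusted p under 0.05, 26 with the replicate block, 32 with both libraries left out and 30 to 62 with 1 library left out. For CPIP+EA against CPIP, 0 as reported, they were 1 with only the 2 groups and 0 to 2 with a library left out. For CPIP+EA against Sham, 83 as reported, they were 226 at an adjusted p under 0.05, 42 with the replicate block, 46 with only the 2 groups, 48 with both libraries left out and 35 to 82 with a library left out. The cause of these shifts was not tested. The replicate block made no RT1 call, and libraries with the same replicate number had correlations of deviations from -0.24 to 0.30, so the numbers were not taken as pairs. Of 532 values for each comparison (28 members under 19 alternatives), the sign differed from that reported in 27 for CPIP against Sham, 40 for CPIP+EA against CPIP and 24 for CPIP+EA against Sham. The limits are 3 libraries a group, no read counts, shared reads between RT1 copies, and values listed at 0 that may be failed estimates.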
